A study of Comephorus dybowskii and Comephorus baikalensis and Batrachocottus nikolskii with 4 samples.

Results

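Antioxidant enzymes remove superoxide and peroxides before these oxidize lipids, proteins and DNA. Superoxide dismutases convert superoxide to hydrogen peroxide, peroxiredoxins and glutathione peroxidases reduce peroxides at a cysteine or selenocysteine, thioredoxin returns oxidized peroxiredoxins to the reduced state, and glutathione S-transferases couple glutathione to reactive molecules. In skeletal muscle these enzymes work close to the sites of oxygen use, in the cytosol, in mitochondria and in membranes.

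The transcripts of these enzymes were compared in skeletal muscle of 4 sculpin species of Lake Baikal. An identifier is a gene name of the de novo assembly, and its contigs can carry titles of different proteins. It was taken where at least 1 title named a peroxiredoxin, thioredoxin, catalase, superoxide dismutase, glutathione peroxidase or glutathione S-transferase. The identifier that the study called CAT was taken as well. The rule found 12 of the 792 identifiers with normalized values, 11 by a title and 1 by the name CAT. By class these were 4 peroxiredoxins, 3 glutathione peroxidases, 2 proteins of the thioredoxin family, 1 superoxide dismutase and 1 glutathione S-transferase. Catalase was named by no title among those read. Titles are those of the most similar known proteins of other fish. In all 1325 title entries were read, where a contig can have more than 1, and they covered 657 of the 792 identifiers. The annotation was read in part, so titles can be missing. Of the 657 identifiers, 339 carried several titles, while 5 of the 11 chosen by title carried a single one. Values cover all contigs of an identifier, so with several titles they are not those of the enzyme alone.

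The pelagic genus Comephorus was represented by C. dybowski and C. baicalensis, and the benthic genus Batrachocottus, which reaches the abyssal zone, by B. nikolskii and B. multiradiatus. All were wild-caught adults, sampled as 1 library per species from RNA pooled over 15 individuals per the sample labels, while the methods give larger pools. With 1 library per species no spread within a species was measured, the 2 species of a genus stood as its samples in every test, and genus, habitat and ancestry cannot be told apart. P-values therefore cover only the spread between these 4 libraries. The totals of listed reads lay between 54508410 and 59156409. The 792 identifiers are those called in at least 1 pair of species by the authors, so they were selected for differences between these same libraries. No p-value given below accounts for that selection.

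Of the 11 identifiers chosen by title, 1 was higher in Comephorus and 6 were higher in Batrachocottus by limma on log2(CPM + 1) at an adjusted p (Benjamini-Hochberg) under 0.05, and 4 did not pass. CPM are read estimates scaled to a library size that was adjusted by TMM. Over all 792 identifiers, 30.1% passed as higher in Comephorus and 24.0% as higher in Batrachocottus. Both species of Comephorus lay above both species of Batrachocottus for 4 of the 11 identifiers, the order was the opposite for 6, and the genera overlapped for 1. Over all 792 identifiers 44.6% had Comephorus above, 39.9% had Batrachocottus above, and 84.5% did not overlap. The median log2 difference, Comephorus minus Batrachocottus, was -4.15 over the 11 identifiers and 1.40 over all 792. Both medians depend on the libraries and the pseudocount, with 0.03 and 0.05 over all 792 without C. dybowski and without C. baicalensis, where the 11 stood at -3.71 and -3.74, and 0.87 over all 792 at a pseudocount of 10, where the 11 stood at -2.10.

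**Figure D1:**
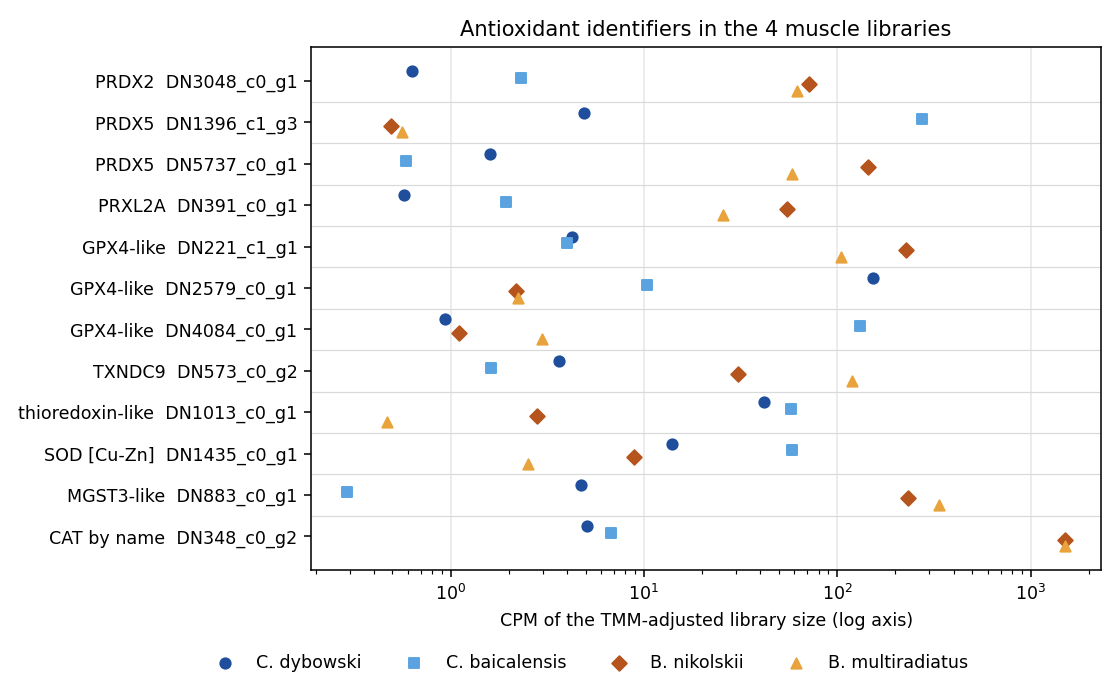
CPM of the adjusted library size (log axis) of the 12 antioxidant identifiers in the 4 libraries, 1 point per species. Of the 11 titled identifiers, both Comephorus points lie above for 4, both Batrachocottus points for 6, and 1 overlaps. Over all 792 identifiers 84.5% did not overlap. The identifier called CAT was found by its values and is not counted. In GPX4-like DN2579_c0_g1, GPX4-like DN4084_c0_g1 and peroxiredoxin-5 DN1396_c1_g3 a single Comephorus library stands far above the other libraries.

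Among the peroxiredoxins, 0 of 4 identifiers passed as higher in Comephorus, beside 30.1% of all 792, and 3 of 4 as higher in Batrachocottus, beside 24.0%. Peroxiredoxin-2 is a cytosolic peroxidase that is abundant in red blood cells. Its identifier DN3048_c0_g1 had 0.631 CPM in C. dybowski and 2.32 CPM in C. baicalensis, against 71.2 CPM in B. nikolskii and 62.0 CPM in B. multiradiatus. The genera were far apart and the species of Batrachocottus close to each other. The log2 difference was -4.86 ± 0.80 (SE of the fit, n = 2 libraries per genus, limma adjusted p = 0.0194). Titles of a regulator of G-protein signaling and a junctional adhesion molecule were carried by other contigs of the same identifier, and its values cover all of its contigs.

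The sums of 9 hemoglobin identifiers, markers of red blood cells, were 3382 CPM in C. dybowski and 3131 CPM in C. baicalensis, against 1096 CPM in B. nikolskii and 734 CPM in B. multiradiatus. By limma 5 of the 9 passed as higher in Comephorus (30.1% of all 792), 1 as higher in Batrachocottus (24.0%), and 3 did not pass. Comephorus lay above for 6 of the 9 (44.6% of all 792), Batrachocottus for 2 (39.9%), and 1 overlapped, while 1 of the 9 was at 0 in at least 1 library. The part of red blood cells in the peroxiredoxin-2 values was not tested, and in pooled bulk RNA fewer cells of a type and less RNA per cell cannot be told apart.

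Peroxiredoxin-5, which reduces peroxides in mitochondria and other compartments, was the title of 2 identifiers with opposite patterns. DN1396_c1_g3 had 4.92 CPM in C. dybowski and 275 CPM in C. baicalensis, against 0.494 CPM in B. nikolskii and 0.558 CPM in B. multiradiatus. Only the C. baicalensis library was high. A log2 difference of 4.73 ± 2.09 did not pass (limma adjusted p = 0.125), although the genera did not overlap.

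DN5737_c0_g1 had 1.59 CPM in C. dybowski and 0.587 CPM in C. baicalensis, against 144 CPM in B. nikolskii and 58.5 CPM in B. multiradiatus. Both Batrachocottus libraries were high and both Comephorus libraries low. Comephorus differed from Batrachocottus by -5.52 ± 0.88 on the log2 scale (limma adjusted p = 0.0188). Another contig of this identifier was titled nck-associated protein 1-like, a protein of actin regulation.

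Peroxiredoxin-like 2A, a thioredoxin-fold protein related to the peroxiredoxins, was represented by DN391_c0_g1. It had 0.577 CPM in C. dybowski and 1.95 CPM in C. baicalensis, against 55.0 CPM in B. nikolskii and 25.6 CPM in B. multiradiatus. The genera did not overlap, and within each genus the species differed far less than the genera did. Its log2 difference was -4.16 ± 0.87 (limma adjusted p = 0.0240), and the identifier carried no other title.

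All 3 glutathione peroxidase identifiers were titled phospholipid hydroperoxide glutathione peroxidase-like, the enzyme known as GPX4, which reduces lipid hydroperoxides within membranes and occurs in the cytosol, nucleus and mitochondria. Each of the 3 was high in other species than the remaining 2. DN221_c1_g1 had 4.23 CPM in C. dybowski and 4.00 CPM in C. baicalensis, against 227 CPM in B. nikolskii and 105 CPM in B. multiradiatus. It was the glutathione peroxidase identifier of Batrachocottus, with a log2 difference of -4.93 ± 0.82 (limma adjusted p = 0.0194).

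DN2579_c0_g1 had 153 CPM in C. dybowski and 10.4 CPM in C. baicalensis, against 2.17 CPM in B. nikolskii and 2.23 CPM in B. multiradiatus. The C. dybowski library stood apart from the other 3, and the log2 difference of 3.71 ± 1.51 did not pass (limma adjusted p = 0.106). A second contig of this identifier was titled rab5 GDP/GTP exchange factor-like, a protein of endosome traffic. DN4084_c0_g1 had 0.931 CPM in C. dybowski and 132 CPM in C. baicalensis, against 1.1 CPM in B. nikolskii and 2.97 CPM in B. multiradiatus. Here only C. baicalensis was high, C. dybowski was the lowest of the 4 libraries, and this was the one identifier whose genera overlapped. The log2 difference was 2.47 ± 2.31 (limma adjusted p = 0.373), and it was -0.58 without the C. baicalensis library.

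The thioredoxin family held 2 identifiers that differed between the genera in opposite directions. DN1013_c0_g1, titled thioredoxin-like, had 41.6 CPM in C. dybowski and 58.0 CPM in C. baicalensis, against 2.79 CPM in B. nikolskii and 0.468 CPM in B. multiradiatus. It was the only one of the 11 titled identifiers that passed as higher in Comephorus, at a log2 difference of 4.41 ± 0.88 (limma adjusted p = 0.0224). The identifier carried no other title.

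DN573_c0_g2 was titled thioredoxin domain-containing protein 9, a relative of the phosducin-like proteins that assist the folding of actin and tubulin. It had 3.64 CPM in C. dybowski and 1.61 CPM in C. baicalensis, against 30.8 CPM in B. nikolskii and 120 CPM in B. multiradiatus. Both Batrachocottus libraries were higher, B. multiradiatus more so, and the log2 difference was -4.15 ± 1.03 (limma adjusted p = 0.0347). The same contig was also titled 39S ribosomal protein L30, mitochondrial, on the opposite strand, and since the libraries did not keep the strand, reads of the 2 genes cannot be told apart. With a pseudocount of 10 in place of 1 the difference was -2.53 and did not pass (limma adjusted p = 0.0642).

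Superoxide dismutase [Cu-Zn], the cytosolic enzyme that turns superoxide into hydrogen peroxide, was represented by DN1435_c0_g1. It had 14.0 CPM in C. dybowski and 58.4 CPM in C. baicalensis, against 8.84 CPM in B. nikolskii and 2.52 CPM in B. multiradiatus. Comephorus lay above Batrachocottus, but C. dybowski and B. nikolskii were close to each other. The log2 difference of 2.34 ± 1.13 did not pass (limma adjusted p = 0.146). Other contigs of the identifier were titled ornithine transcarbamylase, a mitochondrial enzyme of the urea cycle, and atg4da, a protease of autophagy.

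Microsomal glutathione S-transferase 3 is a membrane enzyme that conjugates glutathione and reduces lipid hydroperoxides. Its identifier DN883_c0_g1 had 4.72 CPM in C. dybowski and 0.291 CPM in C. baicalensis, against 232 CPM in B. nikolskii and 335 CPM in B. multiradiatus. The Batrachocottus libraries were close to each other, and C. baicalensis was the lowest with about 15 reads, estimated from CPM. The log2 difference was -6.69 ± 1.06 (limma adjusted p = 0.0188), the widest among the 11 identifiers chosen by title. A second contig was titled ASH2, a subunit of a histone methyltransferase complex.

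Catalase breaks down hydrogen peroxide in peroxisomes. The identifier that the study called CAT was found by the match of its centred values, which fitted a single identifier. That identifier was DN348_c0_g2. Its only title among those read was 40S ribosomal protein S8, a component of the small ribosomal subunit. Since the annotation was read in part, a further title of this identifier may be missing. It had 5.09 CPM in C. dybowski and 6.77 CPM in C. baicalensis, against 1511 CPM in B. nikolskii and 1506 CPM in B. multiradiatus. Each genus was even within itself, and both Batrachocottus libraries were high. Since these values served to find the identifier, they are given as a description with no test. The title does not name catalase, so the identifier enters no count of calls and no sum over enzymes.

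**Figure D2:**
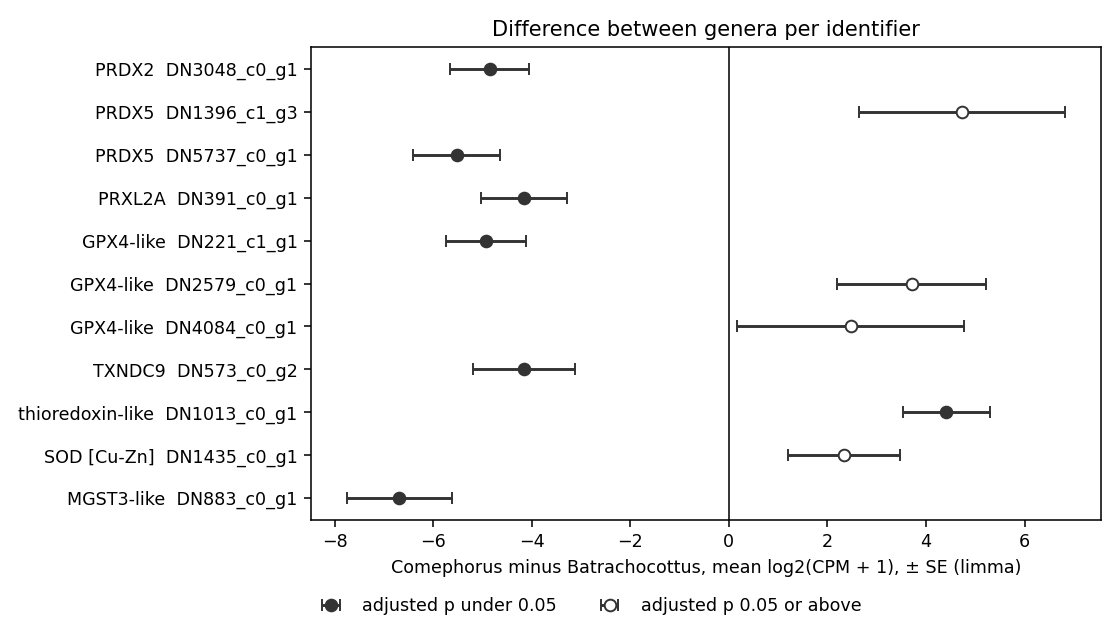
Difference between the genera for each of the 11 titled identifiers (x axis, mean log2(CPM + 1) in Comephorus minus that in Batrachocottus), with the standard error of the limma fit as bars and filled points where the adjusted p was under 0.05. The 6 filled points left of 0 lie between -6.69 and -4.15, the 1 filled point right of 0 is thioredoxin-like at 4.41, and the open points are peroxiredoxin-5 DN1396_c1_g3, 2 GPX4-like identifiers and superoxide dismutase.

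In the unnormalized tables a genus has read estimates only for identifiers above about 1 CPM in both species, and 4755 identifiers are listed for both genera. Of the 11 titled antioxidant identifiers, 4 were among them. By edgeR's quasi-likelihood test 0 of the 4 passed as higher in Comephorus, beside 5.01% of all 4755 identifiers. As higher in Batrachocottus 2 of the 4 passed, beside 4.21%. Of the 792 identifiers selected for differences, to which the 4 belong, 537 were fitted. Of these 537, 147 passed as higher in Comephorus and 102 as higher in Batrachocottus. At an unadjusted p under 0.05, 2 of the 4 were higher in Comephorus, beside 15.1% of all 4755. DESeq2 called both, beside 18.4% of all 4755. The 4755 were not selected as the 792 were, so these shares are not a like background for the 4.

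Those that passed by edgeR were GPX4-like DN221_c1_g1 at a log2 difference of -5.27 (adjusted p = 0.0224) and the thioredoxin domain-containing protein 9 identifier DN573_c0_g2 at -4.91 (adjusted p = 0.0492), and the second did not remain among those with at least 100 reads in every library. GPX4-like DN2579_c0_g1, at 5.19 (edgeR adjusted p = 0.0807), and superoxide dismutase DN1435_c0_g1, at 2.79 (edgeR adjusted p = 0.137), did not pass. DESeq2 gave adjusted p-values of 2.7e-06 and 0.00407 for these 2 identifiers. The other 7 titled identifiers were listed for one genus alone and were not fitted.

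Every limma call among the 11 identifiers was lost when C. dybowski, C. baicalensis or B. nikolskii was left out, when 0 of 792 identifiers passed at all and 440, 453 and 442 lay under 0.05 before adjustment. Without B. multiradiatus, which leaves 1 Batrachocottus library, the median log2 difference was -3.19 over the 11 identifiers and 1.02 over all 792. Both edgeR calls were lost without C. baicalensis, without B. nikolskii or without B. multiradiatus.

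In the classes with several identifiers, the sums differed less between species than the identifiers did. Identifiers level across the libraries could not enter, because the 792 were selected for differences between these same libraries. The evening out of such sums is described and was not tested. These sums add CPM without a correction for length, cover the titled part of the 792 identifiers alone, and were compared as values with no test. The 3 GPX4-like identifiers together had 158 CPM in C. dybowski and 146 CPM in C. baicalensis, against 230 CPM in B. nikolskii and 110 CPM in B. multiradiatus. The highest sum was 2.09 times the lowest, and the genera overlapped, with a log2 difference of -0.07 beside a pooled SD within genera of 0.53. Without DN2579_c0_g1, which carries a second title, the log2 difference was -2.44.

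The identifier that supplied the GPX4 sum changed with the species. In C. dybowski 96.7% of its reads (Wilson 95% interval 96.3% to 97.1%) came from DN2579_c0_g1, and in C. baicalensis 90.2% (89.5% to 90.8%) from DN4084_c0_g1. DN221_c1_g1 supplied 98.6% in B. nikolskii (98.4% to 98.7%) and 95.3% in B. multiradiatus (94.7% to 95.8%). Among these selected identifiers a different one led in each Comephorus species, while the same one led in both Batrachocottus species. The intervals cover counting error only. DN2579_c0_g1 also holds a contig titled rab5 GDP/GTP exchange factor-like, and which contig supplied its reads is not shown.

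The 2 peroxiredoxin-5 identifiers split in a similar way between C. baicalensis and Batrachocottus. DN1396_c1_g3 held 75.7% of their reads in C. dybowski (71.0% to 79.8%) and 99.8% in C. baicalensis (99.7% to 99.9%), while DN5737_c0_g1 held 99.7% in B. nikolskii (99.5% to 99.8%) and 99.0% in B. multiradiatus (98.7% to 99.3%). Their sum was 6.52 CPM in C. dybowski and 276 CPM in C. baicalensis, against 145 CPM in B. nikolskii and 59 CPM in B. multiradiatus. C. dybowski stayed low after the sum, at 362 reads, and the genera overlapped.

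**Figure D3:**
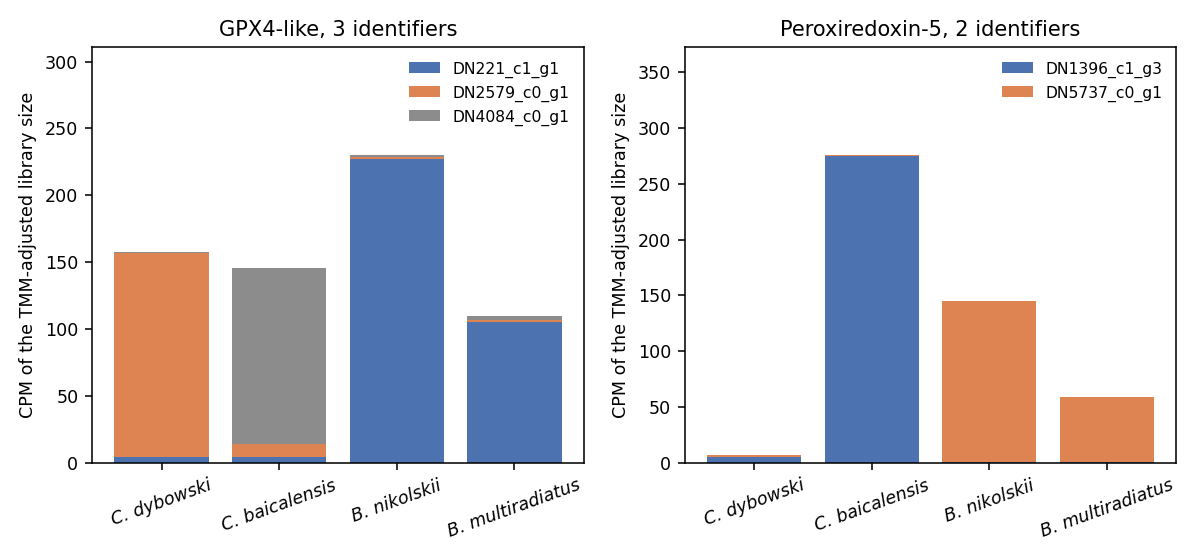
CPM of the adjusted library size (y axis, from 0) of the GPX4-like identifiers (left) and the peroxiredoxin-5 identifiers (right) stacked by species, with one colour per identifier. The GPX4-like bars reach between 110 and 230 CPM and are each made almost wholly of a single identifier, which is another one in C. dybowski, in C. baicalensis and in Batrachocottus, while the peroxiredoxin-5 bar of C. dybowski reaches 6.52 CPM.

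The 4 peroxiredoxins summed to 7.72 CPM in C. dybowski and 280 CPM in C. baicalensis, against 271 CPM in B. nikolskii and 147 CPM in B. multiradiatus. Only C. dybowski was low, and the log2 difference between genera of -2.02 was smaller than the pooled SD of 2.54. It was 0.49 without C. dybowski and -4.52 without C. baicalensis. The thioredoxin family summed to 45.3 CPM in C. dybowski and 59.6 CPM in C. baicalensis, against 33.5 CPM in B. nikolskii and 120 CPM in B. multiradiatus, and the genera overlapped here as well. Superoxide dismutase and the microsomal glutathione S-transferase, with 1 identifier each, were the classes whose genera did not overlap. The study names a further glutathione S-transferase, GSTT1A, that was not among the titles read and was not analysed here.

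Over the 11 titled identifiers the sum was 230 CPM in C. dybowski and 544 CPM in C. baicalensis, against 776 CPM in B. nikolskii and 714 CPM in B. multiradiatus. Both Batrachocottus species lay above both Comephorus species, at a log2 difference of -1.07 with a pooled SD of 0.62. Counting identifiers with a single title, 5 of the 11 remained, and the log2 difference was then 0.12 for the peroxiredoxins, -2.44 for the glutathione peroxidases and 4.41 for the thioredoxin family.

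**Figure D4:**
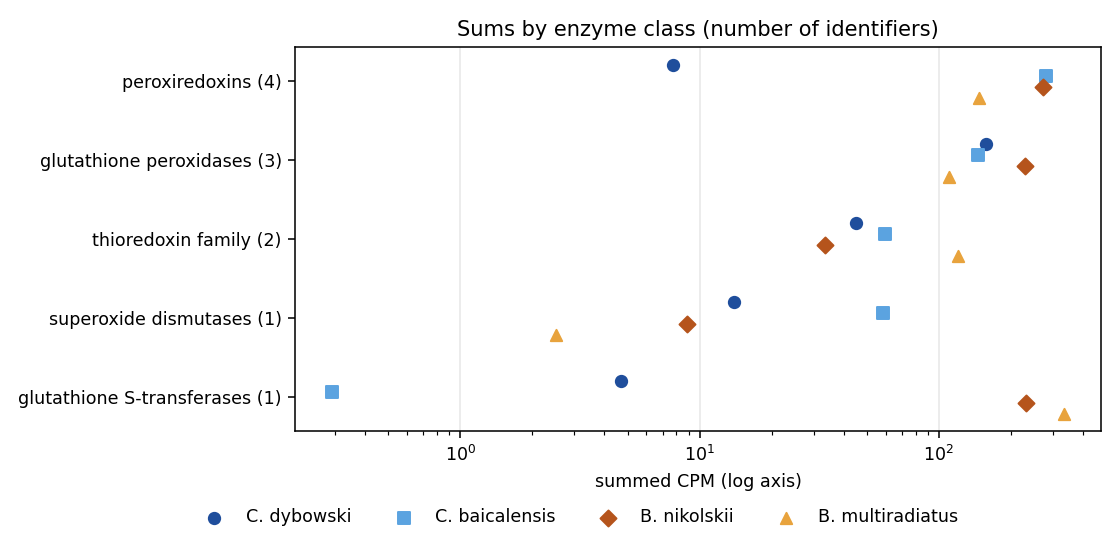
Summed CPM (log axis) of each enzyme class in the 4 libraries, with the number of identifiers per class in brackets and 1 point per species. Points of the genera overlap for the peroxiredoxins, glutathione peroxidases and thioredoxin family, while both Comephorus points lie above for superoxide dismutase and both Batrachocottus points for the glutathione S-transferase.

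Grouped by the compartment that the title or general knowledge gives, 4 identifiers were cytosolic (peroxiredoxin-2, both thioredoxin family members and superoxide dismutase), 2 mitochondrial (peroxiredoxin-5), 3 shared between compartments (GPX4) and 1 of membranes (the microsomal transferase). Peroxiredoxin-like 2A was not assigned. The cytosolic identifiers summed to 59.9 CPM in C. dybowski and 120 CPM in C. baicalensis, against 114 CPM in B. nikolskii and 185 CPM in B. multiradiatus. These ranges overlapped. Comephorus lay above for 2 of the 4 cytosolic identifiers, beside 44.6% of all 792, and Batrachocottus for the other 2, beside 39.9%. In B. multiradiatus 120 CPM of the cytosolic sum came from DN573_c0_g2. Its reads cannot be told apart from those of a mitochondrial ribosomal protein gene on the opposite strand.

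The mitochondrial sum was that of peroxiredoxin-5 and spanned 42.4-fold between its lowest and highest library, C. dybowski and C. baicalensis. The membrane transferase, described above, was the only assigned compartment in which the genera did not overlap. With 1 to 4 identifiers per compartment, differences between compartments were not tested.

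Within Comephorus 4 of the 11 titled identifiers were at least 4-fold apart on the log2(CPM + 1) scale, beside 26.5% of all 792. GPX4-like DN4084_c0_g1 was 0.00711 times as high in C. dybowski as in C. baicalensis (95% counting interval 0.00530 to 0.00933), and peroxiredoxin-5 DN1396_c1_g3 was 0.0179 times as high (0.0158 to 0.0202). GPX4-like DN2579_c0_g1 was 14.7 times as high in C. dybowski as in C. baicalensis (13.5 to 16.1). The microsomal transferase DN883_c0_g1 was 16.6 times as high (9.89 to 30.1), from about 262 and 15 reads, estimated from CPM. Superoxide dismutase was 0.239 times as high in C. dybowski (0.221 to 0.259), and on the log2(CPM + 1) scale its difference of -1.99 fell just short of the threshold of 2.

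Within Batrachocottus 0 of the 11 titled identifiers were at least 4-fold apart on that scale, beside 30.2% of all 792. The widest was thioredoxin domain-containing protein 9, at 0.257 times in B. nikolskii relative to B. multiradiatus (0.245 to 0.270). Thioredoxin-like DN1013_c0_g1 was 5.90 times as high in B. nikolskii (3.93 to 9.19), a difference of 1.37 on the log2(CPM + 1) scale. This came from about 190 and 27 reads, estimated from CPM. GPX4-like DN221_c1_g1 was 2.16 times as high in B. nikolskii (2.10 to 2.23) and peroxiredoxin-5 DN5737_c0_g1 was 2.47 times (2.37 to 2.57). The intervals cover counting error, and 1 library per species gives no test.

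After identifiers of the same title were summed, 2 titles were 4-fold apart within Comephorus, peroxiredoxin-5 and the microsomal transferase. The GPX4 sum was 1.08 times as high in C. dybowski as in C. baicalensis (1.05 to 1.12) and 2.09 times as high in B. nikolskii as in B. multiradiatus (2.03 to 2.15). Both ratios rest on the adjusted library sizes. The Comephorus members of the sum, which were 14.7 and 0.00711 times as high one by one, added up to nearly level values. These members were selected for differences between these libraries, and level identifiers are not in the sum. The part of the contig titled rab5 GDP/GTP exchange factor-like in the reads of DN2579_c0_g1 was not tested.

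Contigs carry a running number that was added after the assemblies of the 4 species were joined. The numbering was divided into 4 ranges of equal width. Among the 307 identifiers with a single titled contig, the species with the highest CPM moved with that number, a relation looked for after the data were seen. In range 1, the lowest, 42 of 65 identifiers were highest in C. dybowski, and in range 2, 49 of 90 were highest in C. baicalensis. In range 3, B. nikolskii was highest for 29 of 64 and B. multiradiatus for 15. In range 4, B. nikolskii was highest for 33 of 88 and B. multiradiatus for 39.

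The placement of the antioxidant contigs was similar in part. GPX4-like DN2579_c0_g1, high in C. dybowski, had a number in range 1, GPX4-like DN4084_c0_g1 and peroxiredoxin-5 DN1396_c1_g3, high in C. baicalensis, had numbers in range 2, and peroxiredoxin-5 DN5737_c0_g1 and GPX4-like DN221_c1_g1, high in Batrachocottus, had numbers in ranges 3 and 4. Exceptions were thioredoxin domain-containing protein 9, in range 2 and highest in B. multiradiatus, and thioredoxin-like, in range 1 and highest in C. baicalensis. Peroxiredoxin-2, peroxiredoxin-like 2A, GPX4-like DN221_c1_g1 and DN348_c0_g2, highest in B. nikolskii, lay in range 4, where B. multiradiatus was most often highest. Of the 307 identifiers with 1 titled contig, 159 had their highest value in the species that led their range. Assemblies were joined at 95% sequence identity, and the part of the assembly of origin in the values of each identifier was not tested.

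**Figure D5:**
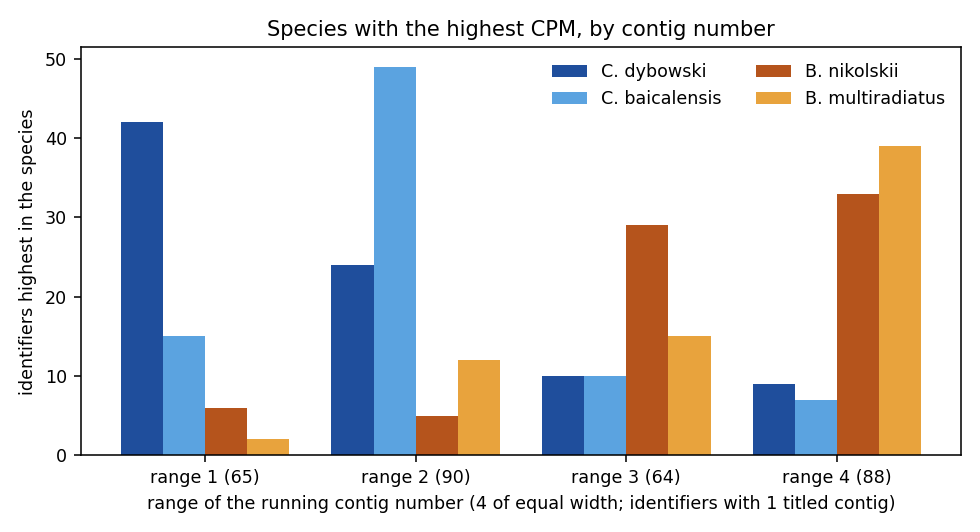
Number of identifiers (y axis) whose highest CPM was in each species, by range of the running contig number (x axis, 4 ranges of equal width, number of identifiers in brackets), for the 307 identifiers with 1 titled contig. The tallest bar is C. dybowski in range 1 (42), C. baicalensis in range 2 (49), B. nikolskii in range 3 (29) and B. multiradiatus in range 4 (39).

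Enzymes that support glutathione and thiol redox were represented by 7 identifiers, of which 1 passed as higher in Comephorus by limma, beside 30.1% of all 792, and 3 as higher in Batrachocottus, beside 24.0%. Their median log2 difference was -3.22. Glutaredoxin-related protein 5, which takes part in mitochondrial iron-sulfur cluster assembly, had 1705 CPM in C. dybowski and 1253 CPM in C. baicalensis, against 3.17 CPM in B. nikolskii and 1.54 CPM in B. multiradiatus. Its log2 difference was 8.81 ± 0.77 (limma adjusted p = 0.0126), and it was the only one of the 7 with Comephorus above.

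In the opposite direction, selenoprotein S, a membrane protein of the endoplasmic reticulum, had 8.81 CPM in C. dybowski and 1.04 CPM in C. baicalensis, against 338 CPM in B. nikolskii and 318 CPM in B. multiradiatus. Its log2 difference was -6.20 ± 1.08 (limma adjusted p = 0.0199). Lactoylglutathione lyase, which uses glutathione to detoxify methylglyoxal, followed at -4.16 ± 0.75 (limma adjusted p = 0.0200). The glutaredoxin identifier also carried a second title.

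NADPH feeds the reduction of glutathione and thioredoxin. Of 2 identifiers of its supply, 1 passed as higher in Comephorus, beside 30.1% of all 792, and 1 as higher in Batrachocottus, beside 24.0%. Glucose-6-phosphate 1-dehydrogenase, the first enzyme of the pentose phosphate pathway, was titled on DN2190_c0_g1, an identifier with 5 titles. It had 3.81 CPM in C. dybowski and 3.77 CPM in C. baicalensis, against 5715 CPM in B. nikolskii and 3125 CPM in B. multiradiatus, a log2 difference of -9.78 ± 0.78 (limma adjusted p = 0.0126). Which of its contigs supplied the reads is not shown by the files. Mitochondrial NADP-dependent malic enzyme had 16.2 CPM in C. dybowski and 29.4 CPM in C. baicalensis, against 1.24 CPM in B. nikolskii and 1.29 CPM in B. multiradiatus, a log2 difference of 3.34 ± 0.77 (limma adjusted p = 0.0297).

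Ferritin heavy subunit, which stores iron and so limits its reaction with peroxides, was the title of 5 identifiers, of which 2 passed as higher in Comephorus, beside 30.1% of all 792, and 2 as higher in Batrachocottus, beside 24.0%. DN990_c1_g1 and DN462_c0_g7 were higher in Comephorus at log2 differences of 5.91 ± 1.17 and 4.54 ± 0.90 (limma adjusted p = 0.0220 and 0.0223). DN347_c1_g1 and DN120_c0_g2 were higher in Batrachocottus at -5.18 ± 1.40 and -4.88 ± 1.27 (limma adjusted p = 0.0413 and 0.0382). As with GPX4, identifiers of one title were high in different species. Their sum was 420 CPM in C. dybowski and 551 CPM in C. baicalensis, against 2425 CPM in B. nikolskii and 1791 CPM in B. multiradiatus.

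Of 4 identifiers for the removal of aldehydes, 0 passed as higher in Comephorus, beside 30.1% of all 792. As higher in Batrachocottus 1 passed, a share near the 24.0% of all 792. It was a mitochondrial aldehyde dehydrogenase-like identifier, DN974_c0_g2, at -3.85 ± 0.82 (limma adjusted p = 0.0252). An aldo-keto reductase identifier, DN740_c0_g1, stood at -3.11 ± 1.04 and did not pass (limma adjusted p = 0.0699). Aldehyde dehydrogenase family 16 member A1 had 8.24 CPM in C. dybowski and 6491 CPM in C. baicalensis, against 5.39 CPM in B. nikolskii and 3.84 CPM in B. multiradiatus. A single library was high, and its log2 difference of 5.46 ± 3.44 did not pass (limma adjusted p = 0.226). The remaining aldehyde dehydrogenase-like identifier, DN1494_c0_g1, stood at 2.16 ± 0.97 (limma adjusted p = 0.129).

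For each antioxidant identifier, the nearest other titled identifier was taken by the distance of centred log2(CPM + 1) over the 4 libraries. Thioredoxin-like was nearest to ATPase inhibitor A of mitochondria (distance 0.36), and GPX4-like DN221_c1_g1 to cytoplasmic malate dehydrogenase (0.51). GPX4-like DN2579_c0_g1 was nearest to an identifier titled mitochondrial malate dehydrogenase and an uncharacterized protein (0.53), and superoxide dismutase to L-threonine dehydrogenase (0.63). Peroxiredoxin-2 was nearest to an identifier titled 40S ribosomal protein S24 and UPF0561 protein C2orf68 homolog (0.41). DN348_c0_g2 was nearest to 60S ribosomal protein L36 (0.56), and peroxiredoxin-5 DN1396_c1_g3 to an alpha cardiac actin (0.48).

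For the rest, peroxiredoxin-5 DN5737_c0_g1 was nearest to an identifier titled male-specific lethal 1 homolog and proteasome subunit beta type-4 (0.46). Peroxiredoxin-like 2A was nearest to one titled mic25a and protein arginine N-methyltransferase 1 (0.57). Thioredoxin domain-containing protein 9 was nearest to an identifier titled NAD(P) transhydrogenase and tRNA-uridine aminocarboxypropyltransferase 1 (0.54). The microsomal transferase was nearest to one titled E3 ubiquitin-protein ligase ZNF598 and with actin titles (0.56). GPX4-like DN4084_c0_g1, at the widest distance of the 12, was nearest to protein yippee-like 5 (1.17). With 4 libraries such nearness describes these values alone.

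The labelled tissue was checked on 30 identifiers whose titles named troponin, parvalbumin, creatine kinase or muscle, which takes in titles of cardiac muscle. Their sums lay between 104447 and 137519 CPM in the 4 libraries, and 4 of the 30 were at 0 in at least 1 library. Markers of other cells varied between libraries. The 7 liver and egg identifiers summed to 1551 CPM in B. nikolskii and to between 46.6 and 168 CPM in the other 3 libraries. Of the 7, 4 were highest in B. nikolskii and 1 in each of the other species. The 7 keratins of epidermis summed to between 29.0 and 894 CPM, the 5 leukocyte identifiers to between 39.2 and 355 CPM, and the 1 perilipin of adipocytes to between 0.488 and 70.5 CPM. The part of such cells in the antioxidant values was not tested.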

How the data were processed

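Skeletal muscle RNA of 4 sculpin species was sequenced as 1 pooled, non-directional library per species. The authors trimmed the reads (Trimmomatic 0.36), assembled each species with Trinity, clustered the joined assemblies with CD-HIT at 95% identity, estimated reads with Salmon and normalized them with edgeR 4.0.3. The deposited counts are whole-number read estimates per identifier. The deposited CPM values are relative to a TMM-adjusted library size and cover 792 identifiers.

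Titles came from the study's annotation table, which was read in part. The members and lists were chosen with earlier results of these data known. Every member is named, and the identifier called CAT, which was found by its values, is in no test reported. In the related lists, up to 2 identifiers with the largest genus difference in each direction are named, with the single nearest titled identifier for each member.

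Limma 3.58.1 was fitted to log2(CPM + 1) of 792 identifiers and edgeR 4.0.16 (quasi-likelihood, TMM) to counts of 4755, in R 4.3.3, with Benjamini-Hochberg adjustment and a threshold of 0.05. Both were also run on simulated counts of the 4755 identifiers with 200 of them changed. That setting is unlike the 792 identifiers selected for differences, so it gives no error rate for the limma calls. Log2 differences of CPM understate changes of low identifiers. Where no count is listed, reads are CPM times the adjusted library size, obtained from the ratio of both tables, and rounded. The intervals treat these estimates as counts. Intervals are Wilson for shares and exact conditional binomial for ratios, at 95%, for counting error only. At these depths 3 counts equal 0.0441 to 0.0567 CPM. Alternatives used DESeq2 1.42.0, other pseudocounts and filters, unadjusted totals and left-out libraries.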

Additional observations from a re-analysis of the deposited data

How the results depend on the processing

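With all 4 libraries kept, 1 of 44 limma values of the antioxidant identifiers changed its call under other pseudocounts (0.1 and 10), a filter of 1 CPM in 2 libraries or unadjusted library totals. It was thioredoxin domain-containing protein 9 at a pseudocount of 10. Within Batrachocottus, unadjusted totals moved the log2 difference of GPX4-like DN221_c1_g1 from 1.11 to 1.48 and that of the microsomal transferase from -0.53 to -0.16. Still 0 antioxidant identifiers were at least 4-fold apart there. The median log2 difference of all 792 identifiers, 1.40, was 1.51 and 0.87 at pseudocounts of 0.1 and 10, 1.23 with unadjusted totals and 0.03 to 1.12 when 1 library was left out. Leaving out 1 library gave 0 to 163 limma calls higher in Comephorus, against 238, and 0 to 153 higher in Batrachocottus, against 190. Among the antioxidant identifiers these numbers were 0 against 1 and 0 to 4 against 6. GPX4-like DN4084_c0_g1 ranged between -0.58 (without C. baicalensis) and 5.52 when 1 library was left out. Its log2 difference within Comephorus, C. dybowski minus C. baicalensis, was -6.10, while that of the GPX4 sum was 0.11. Once identifiers of the same title were summed, 2 titles were at least 4-fold apart within Comephorus.

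On counts, DESeq2 made 874 calls with Comephorus higher and 934 with Batrachocottus higher, against 238 and 200 by edgeR. With no filter, where unlisted values were set to 0, edgeR called 5640 and 6028 of 15221. Among the 4 antioxidant identifiers of the main edgeR fit, both alternatives called 2 higher in Comephorus. The titled identifiers listed for one genus alone were not counted in the fit with no filter. Leaving out 1 library gave 0 to 198 edgeR calls higher in Comephorus and 0 to 94 higher in Batrachocottus, and among the antioxidant identifiers 0 to 1 and 0 to 2. With at least 100 reads in every library, 1 antioxidant identifier was called higher in Batrachocottus, against 2, since fewer were fitted.

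For identifiers with 1 title, the log2 difference of the sum was 0.12 for the peroxiredoxins, -2.44 for the glutathione peroxidases, which are also the identifiers of several compartments, 4.41 for the thioredoxin family and the cytosol, and 4.73 for mitochondria. Superoxide dismutase and the microsomal transferase gave no value here, as neither has an identifier with 1 title. The planned edgeR fit on reads recovered from CPM was not run, because 20.6% of the values came within 0.1 of a whole read. No paired analysis was possible because each library was a pool of another species, so the design holds no pairs.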
